A study of Sus scrofa with 20 samples.

Results

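Semaphorins, their plexin and neuropilin receptors, and the collapsin response mediator proteins (CRMPs) that act inside the cell were examined in the hypothalamus of pigs with different coping behaviour. The family was taken as a list of 36 genes, comprising 20 semaphorins, 9 plexins, 2 neuropilins and 5 CRMPs. Probe sets were assigned to a gene when the platform annotation gave its symbol, and each gene was represented by the probe set with the highest mean over all 20 arrays. Of the 36 genes, 35 had a probe set on the array, and PLXNA3 was not analysed here. The probe sets of 33 genes were bright enough to be tested, while those of SEMA3D and SEMA3E, with a mean log2 value of 4.96 and 4.50, lay below the lowest mean that was kept, 5.21. In all, 97 probe sets carried a member's symbol and 74 of them were kept, of 23861 kept probe sets and 10258 genes with a kept probe set in the whole data set.

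Semaphorins are secreted or membrane-bound proteins that steer growing axons, mostly by repelling or collapsing the growth cone. They bind plexins, whose intracellular part switches small GTPases, and the secreted semaphorins usually need a neuropilin as the ligand-binding partner of the plexin. In the hypothalamus, SEMA3A and neuropilin signals are known from mice and humans to guide the neurons that produce gonadotropin-releasing hormone, and in the adult brain the family also takes part in synapse formation, myelination, vessel growth and immune contacts.

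The samples were hypothalami of 20 adult German Landrace pigs, 10 high-reactive (HR) and 10 low-reactive (LR), with 1 Affymetrix Porcine Snowball array for each animal. The study selected the animals by a backtest of coping behaviour early in life and by a haplotype on chromosome 12, so behaviour and haplotype cannot be told apart in these groups. No treatment is given in the labels, nor sex or hybridisation batch, and replicate numbers only name the arrays. According to the RefSeq annotation of the pig assembly, none of the 35 measured members lies on chromosome 12.

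All values are deposited log2 values after robust multichip averaging, in which 1 unit is a doubling of signal. Array medians ranged from 5.14 to 5.26. The mean of 69 control probe sets that match no known transcript, here called the background mean, was 4.09 ± 0.26 in HR and 4.01 ± 0.17 in LR arrays (SD, n = 10 each), and ranged from 3.73 to 4.44 in HR and from 3.68 to 4.22 in LR. The first principal component of the kept probe sets held 64.7% of the variance, and the size of its correlation with the background mean was 0.982. Therefore each comparison was run without and with the background mean as a covariate. One LR array, LR replicate 3, stood apart in its regional markers. Its mean over 7 thalamus markers was 8.39, against 6.75 to 7.27 in HR arrays and 6.83 to 7.21 in the other LR arrays. Its mean over 15 markers of the hypothalamus was 7.19, against 7.69 to 8.29 in HR arrays and 7.86 to 8.16 in the other LR arrays.

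No member passed the adjusted threshold in either fit, and neither did any of the 23861 kept probe sets. The smallest adjusted p of limma over all probe sets was 0.861 without and 0.491 with the covariate. At an unadjusted p under 0.05, 1 of the 33 members was called without the covariate (3.03%), beside 4.15% of all genes, and it was lower in HR, as were 3.4% of all genes, while 0.751% of genes were higher in HR. With the covariate, 3 of 33 members were called (9.09%), beside 7.39% of all genes. All 3 were lower in HR, as were 5.46% of all genes, while 1.93% of genes were higher. These genes were SEMA6A in both fits, and PLXNA2 and DPYSL3 in the fit with the covariate. Of the members' 74 kept probe sets, 1 was called without the covariate (1.35%), beside 4.57% of all kept probe sets, and 4 were called with it (5.41%), beside 7.89%. The fourth of these belonged to NRP2 and was not its brightest. Without the covariate 21 members had a higher and 12 a lower mean in HR, with a median difference of 0.05 (HR minus LR, log2 units), beside -0.00 over all genes. With the covariate 13 were higher and 20 lower, with a median of -0.02, beside -0.03 over all genes. The sign of the difference turned with the covariate in 12 members. The values of the groups overlapped in all 33, but this count was not made over all genes, so it is not shown to be particular to the family. In bulk tissue, fewer cells of a type and less RNA per cell cannot be told apart.

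Standard errors were 0.08 to 0.23 without the covariate (median 0.14) and 0.06 to 0.13 with it (median 0.08), and the SE was smaller with the covariate in all 33. At the brightest probe set, the 95% intervals of 30 members excluded any difference over 1.5-fold without the covariate, and those of all 33 with it. None of these 33 intervals reached a 2-fold difference in either fit. Some other kept probe sets had larger SEs and so wider intervals. Without the covariate they gave -0.49 ± 0.29 in SEMA5A, -0.44 ± 0.27 in PLXNC1 and -0.37 ± 0.32 in SEMA6D. With it they gave -0.25 ± 0.12, -0.22 ± 0.14 and -0.11 ± 0.17. The limits above do not extend to those probe sets. Smaller differences may not be detectable with 10 arrays per group.

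**Figure D1:**
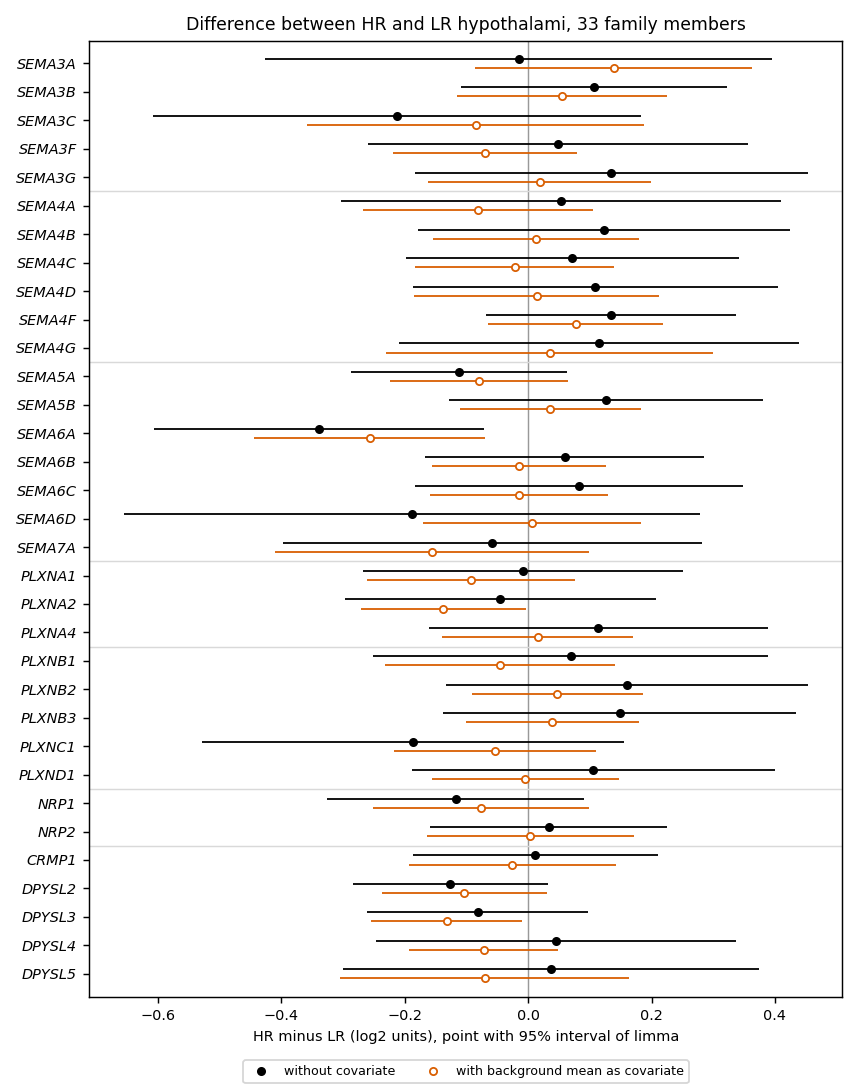
Difference between HR and LR (HR minus LR, log2 units) of the 33 kept members, ordered by class, with the 95% interval of limma. Filled points are without covariate and open points with the background mean as covariate. The intervals of SEMA6A lie below 0 in both fits, and those of PLXNA2 and DPYSL3 only with the covariate.

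The secreted class 3 semaphorins, ligands of neuropilin and plexin complexes, were measured by 5 kept genes of 7. None had an unadjusted p under 0.05 in either fit. SEMA3C, which is known to guide migrating neural crest cells, ranged from 4.84 to 6.37 in HR with a median of 5.36, and from 4.99 to 6.44 in LR with a median of 5.62. Both groups covered nearly the same range. The difference was -0.21 ± 0.19 (SE, unadjusted p = 0.276 in limma) and -0.09 ± 0.13 with the covariate. SEMA3B, described as a tumour suppressor in human lung, ranged from 5.09 to 5.63 in HR (median 5.49) and from 4.97 to 5.78 in LR (median 5.30), so the LR arrays enclosed the HR arrays. Its difference was 0.11 ± 0.10 (p = 0.318) and 0.05 ± 0.08 with the covariate, and its probe set can bind several transcripts.

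The other class 3 genes gave differences near 0. SEMA3A, the growth cone collapsing factor from which the CRMPs were named, differed by -0.02 ± 0.20 without and 0.14 ± 0.11 with the covariate. SEMA3F, a ligand of NRP2, differed by 0.05 ± 0.15 and -0.07 ± 0.07, and SEMA3G, known from endothelial cells and measured by a probe set that can bind several transcripts, by 0.13 ± 0.15 and 0.02 ± 0.09. The unfiltered values of the dim genes were 0.17 ± 0.25 for SEMA3D and -0.06 ± 0.27 for SEMA3E, a ligand of PLXND1. In the RefSeq annotation SEMA3A, SEMA3C, SEMA3D and SEMA3E lie together on chromosome 9, and SEMA3B, SEMA3F and SEMA3G on chromosome 13. The first 4 genes correlated negatively with the background mean, with r between -0.84 and -0.67, whereas PLXNA2, also on chromosome 9, had r of 0.86. The class 3 genes on chromosome 13 correlated positively, with r between 0.64 and 0.90, as did the other 4 members on that chromosome.

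All 6 class 4 semaphorins, membrane-bound ligands mainly of B-type plexins, had a higher mean in HR without the covariate, by 0.05 to 0.13, and none passed the test. With the covariate 4 were higher and 2 lower, between -0.08 and 0.08. SEMA4F, which binds a scaffold protein of excitatory synapses, ranged from 6.22 to 6.89 in HR with a median of 6.57, and from 5.95 to 6.68 in LR with a median of 6.42. In HR 8 of 10 arrays were above the LR mean, and the lowest value of all belonged to LR replicate 3. The difference was 0.13 ± 0.10 (p = 0.183) and 0.08 ± 0.07 with the covariate (p = 0.275), and without LR replicate 3 it was 0.08 and 0.05. SEMA4B ranged from 6.41 to 7.72 in HR (median 6.95) and from 6.46 to 7.17 in LR (median 6.89). Its 4 highest arrays were HR arrays. The difference was 0.12 ± 0.15 (p = 0.406) and 0.01 ± 0.08 with the covariate, and 0.04 without covariate when HR replicate 5, its highest array, was left out. The probe set can bind several transcripts.

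None of the remaining class 4 genes was called. Differences without and with the covariate were 0.11 ± 0.14 and 0.01 ± 0.10 for SEMA4D, a ligand of PLXNB1 also known as an immune cell antigen, and 0.07 ± 0.13 and -0.02 ± 0.08 for SEMA4C, a ligand of PLXNB2. SEMA4A, which acts in immune cells and the retina, differed by 0.05 ± 0.17 and -0.08 ± 0.09. SEMA4G differed by 0.12 ± 0.16 and 0.03 ± 0.13.

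Among the brightest probe sets of the members, SEMA6A had the smallest p in both fits. It is a membrane-bound ligand of PLXNA2 and PLXNA4 that, in mice, controls the migration of cerebellar granule cells and the layout of neural circuits. It ranged from 6.44 to 7.61 in HR with a median of 7.13, and from 7.12 to 7.69 in LR with a median of 7.45. In HR 5 arrays lay below the lowest LR array, and 2 of 10 lay above the LR mean. Means were 7.13 ± 0.37 in HR and 7.46 ± 0.17 in LR (SD, n = 10 each). The difference was -0.34 ± 0.13 (unadjusted p = 0.0155, adjusted p = 0.861 in limma) and -0.26 ± 0.09 with the covariate (unadjusted p = 0.00947, adjusted p = 0.627). On the linear scale the 95% interval without the covariate ran from 0.657 to 0.952 of the LR signal. The second, dimmer probe set of the gene gave -0.18 ± 0.11 and -0.15 ± 0.10 (p = 0.116 and 0.153).

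Leaving out each array in turn, the SEMA6A difference stayed between -0.39 and -0.26 without the covariate (unadjusted p 0.00504 to 0.0324) and between -0.29 and -0.18 with it (p 0.00565 to 0.0387). Without the 7 arrays whose background mean was over 1 SD from the average, 5 HR and 2 LR, the difference was -0.11 (p = 0.298) and -0.12 with the covariate (p = 0.159). Of the 5 HR arrays below all LR arrays, 4 (replicates 4, 5, 9 and 10) were among these 7. Of 11 neuron markers, 10 were lower in HR without and 8 with the covariate, with a median difference of -0.26 and -0.08. Their mean level ranged from 8.76 to 9.78 in HR and from 9.15 to 10.17 in LR. Without LR replicate 3 the LR range ended at 9.73. The markers of the hypothalamus went the other way. Of 15, 13 were higher in HR without and 12 with the covariate, with a median difference of 0.14 and 0.05. The part of these markers in the SEMA6A difference was not tested.

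**Figure D2:**
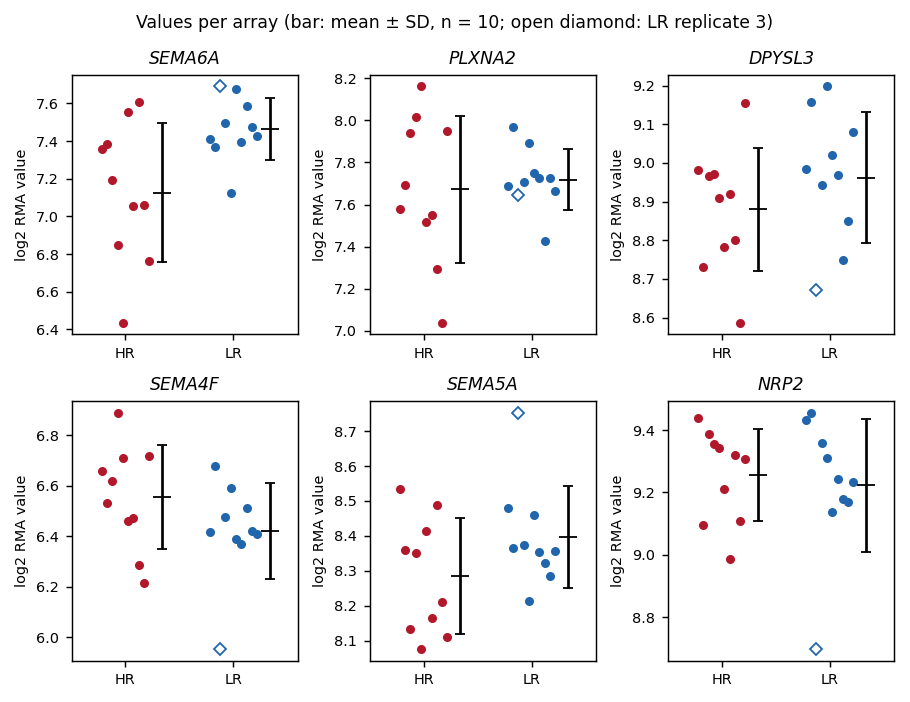
Log2 values of 6 members per array, with HR left of LR. Points are arrays, the bar is the mean ± SD (n = 10 each) and the open diamond is LR replicate 3. In SEMA6A 5 HR arrays lie below all LR arrays, and LR replicate 3 is the lowest array of SEMA4F and NRP2 and the highest of SEMA5A and SEMA6A.

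The other semaphorins of classes 5 to 7 gave no call. SEMA5A, a membrane protein with thrombospondin repeats, ranged from 8.08 to 8.53 in HR with a median of 8.28, and from 8.21 to 8.75 in LR with a median of 8.36. In HR 5 arrays lay below the lowest LR array. The difference was -0.11 ± 0.08 (p = 0.197) and -0.08 ± 0.07 with the covariate, and -0.07 without LR replicate 3. All 5 kept probe sets of SEMA5A had a lower mean in HR without the covariate, from -0.49 to -0.01. With it they ranged from -0.25 to 0.08, so they no longer shared the direction. SEMA6D, which signals through PLXNA1 in the chick heart, ranged from 7.67 to 9.53 in HR (median 8.51) and from 8.23 to 9.45 in LR (median 8.72). Its difference was -0.19 ± 0.23 without and 0.01 ± 0.09 with the covariate. SEMA5B differed by 0.13 ± 0.12 and 0.04 ± 0.07, SEMA6B by 0.06 ± 0.11 and -0.01 ± 0.07, and SEMA6C by 0.08 ± 0.13 and -0.01 ± 0.07. SEMA7A, a lipid-anchored ligand of PLXNC1 and integrins, differed by -0.06 ± 0.16 and -0.16 ± 0.12.

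Among the A-type plexins, the signalling receptors of class 3 and class 6 semaphorins, PLXNA2 was called with the covariate. It ranged from 7.04 to 8.16 in HR with a median of 7.63, and from 7.43 to 7.97 in LR with a median of 7.71. The HR arrays extended beyond the LR arrays on both sides, with 2 above and 2 below. The difference was -0.05 ± 0.12 (p = 0.714) and -0.14 ± 0.06 with the covariate (unadjusted p = 0.0442, adjusted p = 0.627). With the covariate its unadjusted p was over 0.05 in 11 of the 20 fits that left out 1 array, reaching 0.144 without HR replicate 9, and the other kept probe sets of the gene gave -0.05 ± 0.10 and 0.03 ± 0.10. PLXNA4, a receptor for SEMA3A and class 6 ligands, ranged from 6.99 to 8.17 in HR (median 7.60) and from 7.16 to 7.84 in LR (median 7.57), a wider range in HR. Its difference was 0.11 ± 0.13 (p = 0.399) and 0.02 ± 0.08 with the covariate. PLXNA1 differed by -0.01 ± 0.13 and -0.09 ± 0.08.

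The B-, C- and D-type plexins gave no call. PLXNB2, a receptor of class 4 semaphorins, ranged from 7.69 to 8.71 in HR with a median of 8.25, and from 7.47 to 8.51 in LR with a median of 8.11. In HR 7 of 10 arrays were above the LR mean. The difference was 0.16 ± 0.14 (p = 0.268) and 0.05 ± 0.07 with the covariate, and 0.09 without LR replicate 3, its lowest array. PLXNC1, the receptor of SEMA7A, ranged from 6.85 to 8.12 in HR (median 7.61) and from 7.11 to 8.14 in LR (median 7.80). Only 3 HR arrays were above the LR mean. The difference was -0.19 ± 0.17 (p = 0.270) and -0.05 ± 0.08 with the covariate.

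PLXNB1, the receptor of SEMA4D, differed by 0.07 ± 0.15 without and -0.05 ± 0.09 with the covariate. PLXND1, which binds SEMA3E in vessels, differed by 0.11 ± 0.14 and -0.00 ± 0.07. PLXNB3, a plexin of oligodendrocytes, differed by 0.15 ± 0.14 and 0.04 ± 0.07. A dimmer probe set of PLXNB3 gave 0.52 ± 0.19 (unadjusted p = 0.0137), but its mean of 5.19 lay just under the filter. Both of these probe sets can bind several transcripts.

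The neuropilins, ligand-binding partners of plexins for class 3 semaphorins and also of receptors for vascular endothelial growth factor, gave no call at their brightest probe sets. NRP1 ranged from 7.10 to 7.60 in HR with a median of 7.31, and from 7.22 to 7.94 in LR with a median of 7.43. Its difference was -0.12 ± 0.10 (p = 0.255) and -0.08 ± 0.08 with the covariate. The other kept NRP1 probe sets gave -0.21 ± 0.11 and -0.41 ± 0.23, so all 3 were lower in HR (p = 0.0654 and 0.0880). A dim probe set of NRP1 below the filter went the other way, with 0.26 ± 0.18 (p = 0.149) and 0.36 ± 0.14 with the covariate (unadjusted p = 0.0193). NRP2 ranged from 8.99 to 9.44 in HR (median 9.31) and from 8.70 to 9.46 in LR (median 9.24). Its lowest value was LR replicate 3, and without that array the difference of 0.03 ± 0.09 (p = 0.724) became -0.02. It was 0.00 ± 0.08 with the covariate. The other 6 kept probe sets of NRP2 gave differences between -0.20 and -0.03 without the covariate and between -0.23 and -0.06 with it. The lowest of these was at an unadjusted p under 0.05 with the covariate (-0.23 ± 0.11, p = 0.0490).

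The CRMPs, which bind tubulin and pass the signal of SEMA3A on to the cytoskeleton, had 3 higher and 2 lower means in HR without the covariate. With it all 5 were lower, by 0.03 to 0.13 log2 units in size. DPYSL3 (CRMP4) ranged from 8.59 to 9.15 in HR with a median of 8.91, and from 8.67 to 9.20 in LR with a median of 8.98. The groups overlapped over almost their whole range. The difference was -0.08 ± 0.09 (p = 0.352) and -0.13 ± 0.06 with the covariate (unadjusted p = 0.0360, adjusted p = 0.627). Its unadjusted p was over 0.05 in 8 of the 20 fits with the covariate that left out 1 array. The second kept probe set gave -0.07 ± 0.12 and -0.13 ± 0.10.

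DPYSL2 (CRMP2), the member that promotes axon formation by carrying tubulin, ranged from 11.54 to 12.09 in HR (median 11.91) and from 11.89 to 12.10 in LR (median 12.002). The LR arrays lay close together and 5 HR arrays were below all of them. The difference was -0.13 ± 0.08 (p = 0.113) and -0.10 ± 0.06 with the covariate (p = 0.122), or -0.05 (p = 0.389) with the covariate and without HR replicate 9. The other kept probe sets of DPYSL2 gave -0.05 ± 0.07 and -0.12 ± 0.08 without the covariate, and -0.07 ± 0.06 and -0.11 ± 0.07 with it. CRMP1 differed by 0.01 ± 0.10 without and -0.03 ± 0.08 with the covariate, DPYSL4 by 0.05 ± 0.14 and -0.07 ± 0.06, and DPYSL5 by 0.04 ± 0.16 and -0.07 ± 0.11.

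Most members varied with the background mean of the array. Over the 20 arrays, Pearson's r with the background mean was over 0.5 in 24 of 33 members (72.7%, beside 49.96% of all genes) and under -0.5 in 7 (21.2%, beside 34.0%). Permutation tests with adjustment over the 33 relations passed 0.05 in 32 of them, all but NRP2 (r = 0.43, Spearman coefficient = 0.37, adjusted permutation p = 0.0585 and 0.109). These tests were run on the members only. The size of r was over 0.5 in 93.9% of members and in 84.0% of all genes, so such relations were not particular to the family. DPYSL4 had the highest r of 0.95 (Spearman coefficient = 0.93, r without the 2 arrays of most extreme background 0.94) and SEMA6D the lowest of -0.94 (Spearman coefficient = -0.90, and -0.94 without those arrays). For both genes the permutation p was 1e-05, the smallest that 100000 permutations can give, and the adjusted p was 2.54e-05 for r and 3e-05 for the Spearman coefficient. The relations of these genes were also present within the groups, with r of 0.98 in HR and 0.91 in LR for DPYSL4, and of -0.97 in HR and -0.88 in LR for SEMA6D.

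The members fell on different sides. DPYSL2 was lower on arrays with a higher background mean at its brightest probe set (r = -0.49, Spearman coefficient = -0.57, adjusted permutation p = 0.029 and 0.00986). Another of its kept probe sets had r of 0.32. The members listed next had r over 0.5 in size. SEMA3A, SEMA3C, SEMA5A, SEMA6A, SEMA6D, PLXNC1 and NRP1 were lower on arrays with a higher background mean, and all class 4 semaphorins, the A-, B- and D-type plexins, SEMA3B, SEMA3F, SEMA3G, SEMA5B, SEMA6B, SEMA6C, SEMA7A, DPYSL3, DPYSL4, DPYSL5 and CRMP1 were higher. In NRP1 r was -0.88 in HR and -0.16 in LR, and -0.26 in LR without LR replicate 3. In SEMA4G r was 0.88 in HR and -0.07 in LR, but 0.55 in LR without LR replicate 3, so the LR value rested on that array. These differences between the groups were not tested.

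**Figure D3:**
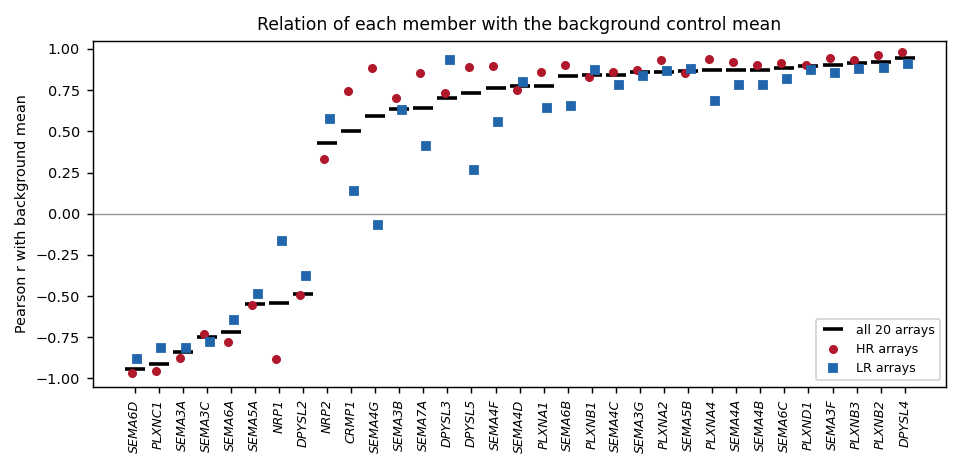
Pearson's r of each member with the background mean, ordered by r over all 20 arrays (bars), with r within the 10 HR arrays (circles) and the 10 LR arrays (squares). The members range from -0.94 for SEMA6D to 0.95 for DPYSL4, and SEMA4G has r of 0.88 in HR and -0.07 in LR arrays, or 0.55 in LR without LR replicate 3.

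**Figure D4:**
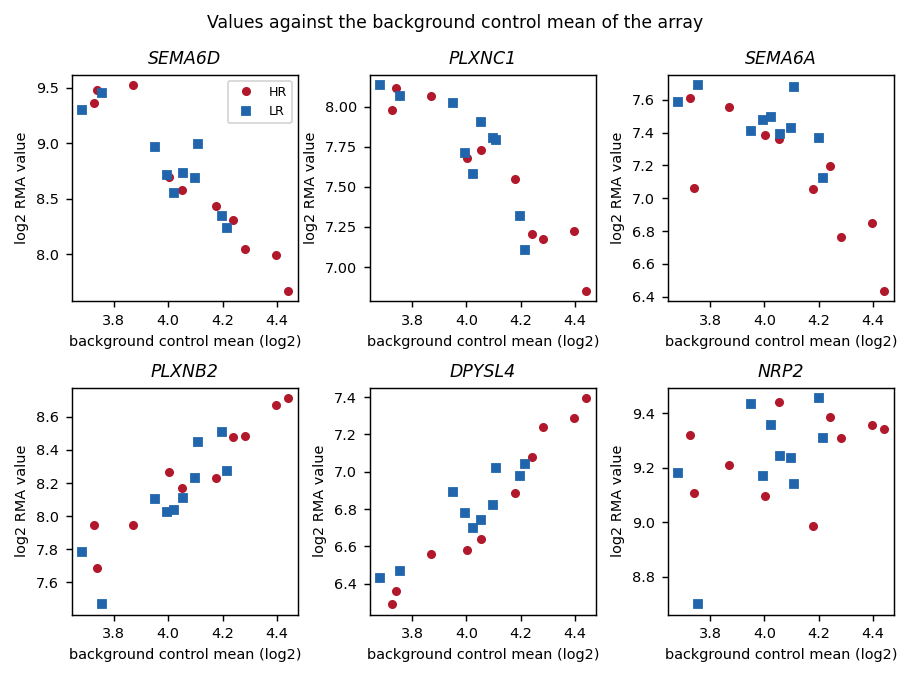
Log2 values of 6 members against the background mean of the array (log2), with HR as circles and LR as squares. HR arrays reach a background mean of 4.44 and LR arrays 4.22, and SEMA6D and PLXNC1 fall while PLXNB2 and DPYSL4 climb along the axis in both groups.

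The arrays at the edges were shared by many members. HR replicate 5, on which the background mean was highest, had the highest value in 15 members and the lowest in 6, and HR replicate 9 had the lowest value in 15. These arrays also lay at the opposite ends of the first principal component of all kept probe sets. The same counts were not made over all genes, so they are not shown to be particular to the family. LR replicate 3 had the highest value in SEMA3D, SEMA3E, SEMA5A and SEMA6A and the lowest in SEMA3B, SEMA4F, PLXNB1, PLXNB2, PLXND1 and NRP2. The SD over arrays was larger in HR than in LR in 29 of 33 members (87.9%, beside 82.4% of all genes), with a median SD of 0.37 in HR and 0.21 in LR. After the background mean was taken out by regression this held for 20 members (60.6%, beside 55.8% of all genes), with a median SD of 0.154 in HR and 0.162 in LR.

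The correlation between members was weaker once the background mean was removed. Over the 528 pairs the median Pearson's r was 0.55 and 75.8% of pairs were over 0.5 in size. After the background mean was taken out of both genes the median was 0.12 and 14.96% were over 0.5 in size. Permutation tests of r adjusted over the 528 pairs passed 0.05 in 426 pairs before and in 12 pairs after this step, all 12 of them positive. By Spearman's rank correlation no pair passed after removal, with a smallest adjusted permutation p of 0.0686. All pairs share the same arrays and tissue samples. No pairs of other genes were computed, so whether these counts differ from those of other gene lists was not tested.

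The highest correlation after removal was between SEMA4G and DPYSL5, a CRMP that inhibits neurite outgrowth (r = 0.78, permutation p = 3e-05, adjusted 0.0158). Its Spearman coefficient was 0.74 (permutation p = 0.00033, adjusted 0.0686) and r was 0.70 with the 2 most distant SEMA4G arrays left out. After removal, r with the thalamus markers, which were high in LR replicate 3, was 0.76 for SEMA4G and 0.59 for DPYSL5. That array, with a SEMA4G value of 7.96, was among the 2 arrays left out for the r of 0.70. Its part alone in the correlation of the 2 genes was not tested. DPYSL2 and DPYSL3, CRMPs that can form mixed tetramers, had r = 0.06 before removal and 0.65 after it (permutation p = 0.00063, adjusted 0.0333). Their Spearman coefficient was 0.65 (permutation p = 0.00221, adjusted 0.0838), and r was 0.65 without the 2 farthest arrays. These values hold for the brightest probe sets, and the pair was not computed with the others. The 3 kept DPYSL2 probe sets correlated with one another at r between 0.34 and 0.86. Their r with the background mean lay between -0.49 and 0.32. SEMA4C and SEMA4D had r = 0.72 after removal (permutation p = 0.00033, adjusted 0.0194), Spearman coefficient = 0.70 (permutation p = 0.00064, adjusted 0.0729) and r = 0.73 without the 2 farthest arrays.

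Over 16 known ligand and receptor pairs, chosen from textbook knowledge after values had been seen, the median r was -0.03 before and 0.03 after removal of the background mean. Only SEMA4D and its receptor PLXNB1 were over 0.5 after removal (r = 0.64, permutation p = 0.00203, adjusted 0.0604). Their Spearman coefficient was 0.61 (permutation p = 0.00534, adjusted 0.0926), and r without the 2 farthest arrays was 0.50. This 1 pair was 6.25% of the 16, whereas 13.3% of all 528 pairs of members were over 0.5 after removal.

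**Figure D5:**
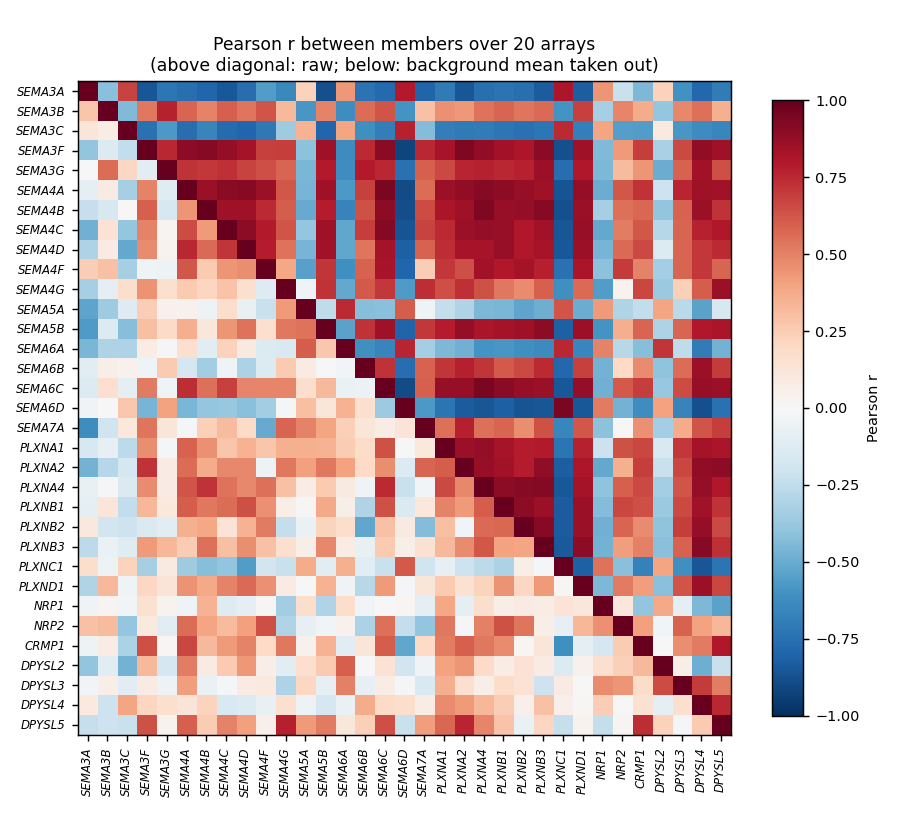
Pearson's r between the 33 kept members over the 20 arrays, with raw values above the diagonal and values after removal of the background mean below it. Strong red and blue blocks fill the upper part, where the median is 0.55, and the lower part is pale, with a median of 0.12.

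Marker lists of cell types and regions were set against the members after removal of the background mean, in 363 relations chosen after values had been seen. At its brightest probe set, NRP2 had r = 0.77 with the mean of the hypothalamus markers before removal. After removal r was 0.81 (permutation p = 0.00012, adjusted 0.0218). Its Spearman coefficient was then 0.78 (permutation p = 5e-05, adjusted 0.0181), and r was 0.72 without the 2 farthest arrays. LR replicate 3 had the lowest raw value of all arrays in both, 8.70 and 7.19. The 7 kept NRP2 probe sets correlated with one another at r between 0.18 and 0.76, and the others were not set against the markers. For PLXNB3, r with the markers of oligodendrocyte precursors was 0.13 before removal and 0.76 after it (permutation p = 0.00012, adjusted 0.0218). After removal the Spearman coefficient was 0.75 (permutation p = 0.00021, adjusted 0.0381) and r was 0.68 without the 2 farthest arrays. Of these 7 markers, 5 had r over 0.5 and 2 had r under -0.5 with the background mean. No other relation passed the adjusted test of r. SEMA6A had r = 0.61 with the neuron markers (permutation p = 0.00463, adjusted 0.167), Spearman coefficient = 0.53 (permutation p = 0.0184, adjusted 0.393) and r = 0.58 without the 2 farthest arrays.

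Further genes of the pathway were counted in the same fits, and none passed the adjusted threshold. Of 16 other co-receptors and receptor partners, 15 were kept, with 8 higher and 7 lower in HR and a median difference of 0.02 without and 0.00 with the covariate. Only FLT1, a receptor for vascular endothelial growth factor, had an unadjusted p under 0.05, which was 6.67% of the list in both fits, beside 4.15% of all genes without and 7.39% with the covariate. Its means were 8.68 ± 0.23 in HR and 8.90 ± 0.10 in LR (SD, n = 10 each), and its difference was -0.21 ± 0.09 (p = 0.0273) and -0.18 ± 0.07 with the covariate (p = 0.0267). The probe set of FLT1 can bind several transcripts.

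Of 47 intracellular effectors, 37 were kept, with 18 higher and 19 lower in HR without the covariate and 14 higher and 23 lower with it. The medians were -0.01 and -0.02. TRIO, an exchange factor for small GTPases, averaged 7.57 ± 0.27 in HR and 7.80 ± 0.17 in LR (SD, n = 10 each). Its difference was -0.23 ± 0.11 (p = 0.0453) and -0.16 ± 0.07 with the covariate (p = 0.0400). With the covariate, 3 effectors of 37 (8.11%, beside 7.39% of all genes) had an unadjusted p under 0.05, all lower in HR, a share near that of all genes. Beside TRIO these were RANBP9, a scaffold protein that binds plexin A (-0.23 ± 0.09, p = 0.0159), and RHOA, a GTPase that drives growth cone collapse (-0.25 ± 0.11, p = 0.0320). Without the covariate RANBP9 differed by -0.41 ± 0.21 and RHOA by -0.15 ± 0.15.

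The other guidance families, that is ephrins with Eph receptors, netrins, slits with robo receptors and repulsive guidance molecules, had 37 of 43 genes kept. Without the covariate 20 were higher and 17 lower in HR, with a median of 0.03, and with it 17 were higher and 20 lower, with a median of -0.01. None had an unadjusted p under 0.05 in either fit. The smallest p without the covariate belonged to ROBO2, a slit receptor (-0.43 ± 0.22, p = 0.0636), and NTNG1, a netrin relative that is anchored in the membrane (-0.65 ± 0.37, p = 0.0904).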

How the data were processed

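RNA of 20 hypothalami was hybridised to 1 array per animal. The authors scanned the arrays with GCOS 1.1.1 and deposited log2 values after robust multichip averaging, which corrects background, equalises the distributions of the arrays and summarises probes into probe sets. A shift of most transcripts in the same direction cannot be seen in such values, and differences of dim probe sets are compressed.

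Of 47845 probe sets, 123 controls were set aside and the brighter 50% of the other 47722 were kept. The annotation gave 26426 probe sets 1 gene symbol and none to the others. A probe set named for a mouse microRNA but annotated to NRP1 was left out of NRP1. Symbols were taken from the platform annotation and chromosomes from RefSeq. For each of the 23861 retained probe sets a linear model (lmFit, then eBayes) gave HR minus LR in limma 3.58.1 under R 4.3.3, without and with the mean of 69 background control probe sets as covariate. P-values were adjusted by Benjamini-Hochberg across these probe sets, at thresholds of 0.05. P-values rest on the spread between animals. The median 95% interval extended 0.29 log2 units to each side, and the number of arrays limits the precision. Correlations were tested two-sided with 100000 permutations of arrays. The scripts were tested on simulated data.

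The members, lists and tests were chosen with earlier results of these data known. Values are given in full for members with an unadjusted p under 0.05 in either fit and for the 2 of smallest p in each class. SEMA6D, the correlations and their values in LR without LR replicate 3 were added after values had been seen. Alternatives covered the filter, normalisation, array weights, probe set choice, a rank test, the covariate and leaving out arrays.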

Additional observations from a re-analysis of the deposited data

Results flagged for a closer look

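Of 70 groups of 10 arrays examined, 2 for each of the 35 measured members, 5 held an array that stood apart from the rest by Dixon's criterion, a criterion that chance meets in about 5% of groups. SEMA3E had its lowest value of 3.07 in HR replicate 4, with the next array at 4.25, and this gene lay under the filter. The other 4 were all LR replicate 3, the array with the high thalamus and low hypothalamus marker level. It was highest in SEMA3D at 6.45 (next 5.39, also under the filter) and in SEMA5A at 8.75 (next 8.48), and lowest in SEMA4F at 5.95 (next 6.37) and in NRP2 at 8.70 (next 9.14). The part of the regional markers in these values was not tested.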

How the results depend on the processing

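The count of 0 members and 0 probe sets past the adjusted threshold held under every alternative run. Without covariate, the count of members at an unadjusted p under 0.05 was 3 with array weights (SEMA3C, SEMA4F and SEMA6A), 2 with the mean of all probe sets (SEMA6A and PLXNB3), 0 without the 7 arrays of extreme background, and 1 in all fits that left out 1 array. With covariate it was 1 after repeated quantile normalisation, 0 without the 7 arrays and 1 to 3 when leaving out 1 array, with 1 (SEMA6A) without HR replicate 4, HR replicate 9, LR replicate 1 or LR replicate 2. It was 2 (SEMA6A and DPYSL3) without filter, with median centring or with array weights, and 2 (SEMA6A and PLXNB3) with the mean of all probe sets. Of the members' 74 kept probe sets, 1 was called without covariate, 2 without filter, 6 with array weights, 0 without the 7 arrays, and 1 to 4 when leaving out 1 array (4 without HR replicate 8, 3 without HR replicate 1, HR replicate 6 or LR replicate 2, and 2 without HR replicate 9 or LR replicate 3). The share of all genes or of all kept probe sets at an unadjusted p under 0.05 was not computed under these alternatives. These counts are therefore not shown to be particular to the family, and the causes of their changes were not tested. The median difference of the members ranged from 0.01 to 0.11 without and from -0.04 to 0.00 with the covariate when leaving out 1 array. It turned to -0.022 without the 7 arrays in the fit without covariate, and to 0.0084 with array weights in the fit with it, both moves smaller than the spread between arrays.

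Single members changed sign as follows, all of them without a call in either direction. With the mean of all probe sets, PLXNA2 was 0.049 and NRP2 -0.068 without covariate, and SEMA3B -0.030, SEMA4B -0.030, PLXNA4 -0.0085, PLXNB2 -0.015 and NRP2 -0.088 with it. Without the 7 arrays, SEMA4B was -0.050 and NRP2 -0.069 without covariate, and SEMA4B -0.037 and NRP2 -0.067 with it. SEMA4B with covariate was -0.0060 with probe sets for 1 transcript. NRP2 was -0.0049 with array weights, and -0.000585 with the first principal component as covariate. Leaving out 1 array, the ranges that crossed 0 were -0.019 to 0.047 for SEMA4B, -0.017 to 0.061 for PLXNA4 and -0.036 to 0.034 for NRP2 with covariate, and -0.099 to 0.025 for PLXNA2 (positive without HR replicate 9) and -0.025 to 0.063 for NRP2 (negative without LR replicate 3) without it. No paired analysis was possible because the labels give animal numbers and no replicate numbers shared between HR and LR. Signal over background limited SEMA3D and SEMA3E, and 22 members were measured with the brightest 25% of probe sets, 35 without filter.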
